A study of Mus musculus with 6 samples.

Results

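Transcripts of 7 genes of cytotoxic lymphocytes were followed through leukocytes of the inflamed mouse joint. The genes were Gzma, Gzmb, Prf1, Nkg7, Klrd1, Ncr1 and Klrb1c, picked by symbol from the gene table, and all 7 were found among its 20394 genes. The cells were CD45-positive cells sorted from digested synovium of male C57BL/6 mice, which were 8 weeks old when obtained and older by the time of the experiment, on day 3 after an injection of methylated bovine serum albumin into the knee. All mice had been immunized with that protein in complete Freund's adjuvant, and the joint was challenged on day 21. From that day the mice received an intraperitoneal injection of PBS (2 samples) or of 300 μg of the peptide PEPITEM (4 samples), which limits leukocyte trafficking. The deposited table pools 32953 cells whose barcodes end in a library number from 1 to 6, and no source used here ties a number to a treatment, so PBS and PEPITEM were not compared and the libraries are described as 6 libraries of unknown treatment.

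Natural killer (NK) cells and cytotoxic T cells kill through granules that they empty onto a target. Perforin, made from Prf1, opens the target membrane to the granzymes, serine proteases made from Gzma and Gzmb, and Nkg7 encodes a granule membrane protein needed for granule release. Klrd1 (CD94) pairs with NKG2 proteins to read nonclassical MHC class I, Ncr1 (NKp46) is an activating receptor of NK and other innate lymphoid cells, and Klrb1c is the NK1.1 antigen used to recognize NK cells in C57BL/6 mice.

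The genes lie on 5 chromosomes of GRCm38 (mm10, GENCODE vM21), and all 7 are annotated as protein coding. Gzma is at chr13:113093825-113100981 on the minus strand and Gzmb at chr14:56258838-56262260 on the minus strand. Prf1 is at chr10:61297833-61304680 on the plus strand. Nkg7, at chr7:43437073-43438249, and Ncr1, at chr7:4337724-4345164, are both on the plus strand. Klrd1 (chr6:129591782-129598775, plus) and Klrb1c (chr6:128778485-128789215, minus) lie in the NK gene complex, where near copies in the Klra, Klrb1 and Klrc families could share reads, as could the granzyme genes beside Gzmb. How such reads were split was not tested.

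Stretches of RefSeq sequence before the transcription start (GRCm38.p6) were available for 6 of the 7 genes, with Klrd1 not among them. Those of Gzma (chr13:113100982-113101231, minus), Gzmb (chr14:56262335-56262584, minus), Prf1 (chr10:61297586-61297832, plus) and Ncr1 (chr7:4337465-4337714, plus) are printed 5′ to 3′ to set genes with most of their transcripts in NK cells (Gzma, Prf1 and Ncr1) beside Gzmb, which had most of its transcripts elsewhere. The 3 bases next to the RefSeq start of Prf1 lie in an annotated exon and are left out. Capitals mark matches, on either strand, to the letters TGTGGT (the RUNX core), CAGGAAG (an ETS site) and TGACTCA (an AP-1 site).
Gzma: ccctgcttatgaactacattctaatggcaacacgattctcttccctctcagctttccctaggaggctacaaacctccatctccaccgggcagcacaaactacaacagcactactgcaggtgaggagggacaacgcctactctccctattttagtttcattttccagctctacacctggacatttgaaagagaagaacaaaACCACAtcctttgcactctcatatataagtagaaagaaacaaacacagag
Gzmb: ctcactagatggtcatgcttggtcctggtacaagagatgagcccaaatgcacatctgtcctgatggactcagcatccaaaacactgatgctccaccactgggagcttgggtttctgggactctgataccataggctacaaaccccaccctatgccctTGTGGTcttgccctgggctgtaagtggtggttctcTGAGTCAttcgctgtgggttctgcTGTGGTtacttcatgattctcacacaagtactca
Prf1: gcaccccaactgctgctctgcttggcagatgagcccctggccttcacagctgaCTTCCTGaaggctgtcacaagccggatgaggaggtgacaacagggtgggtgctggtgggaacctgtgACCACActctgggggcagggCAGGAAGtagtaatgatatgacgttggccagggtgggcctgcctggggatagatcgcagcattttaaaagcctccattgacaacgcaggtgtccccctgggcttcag
Ncr1: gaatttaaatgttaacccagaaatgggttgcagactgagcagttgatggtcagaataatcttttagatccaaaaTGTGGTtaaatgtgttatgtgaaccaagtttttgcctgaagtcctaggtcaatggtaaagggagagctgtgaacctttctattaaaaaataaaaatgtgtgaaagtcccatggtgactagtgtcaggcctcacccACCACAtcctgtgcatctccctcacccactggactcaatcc
Within the 250 bases before the start, TGTGGT or its reverse complement was found in all 6 genes with a window and in 14.0% of the 32851 RefSeq windows of that length. Positions are counted back from the start and give the leftmost base of the match, and no match overlapped another. The match lay at -50 in Gzma, at -93 and -34 in Gzmb, at -130 in Prf1, at -83 in Nkg7, at -89 in Klrb1c, and at -176 and -41 in the window of Ncr1 printed above. CAGGAAG was found at -197 and -110 in Prf1 and at -35 in Nkg7 (10.8% of all windows), and TGACTCA at -58 in Gzmb (4.46%). AGGTGTGA, a T-box site, was found at -14 in Nkg7 (1.12%). The RefSeq starts used for Nkg7 and Klrb1c lie inside the annotated gene spans given above. The matches at -35 and -14 in Nkg7 and at -89 in Klrb1c thus lie within those spans, not before them. The motifs were picked with the sequences in view, and a match describes letters only.

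The 6 libraries held 2919 to 9345 cells and 47273569 to 123367661 UMIs, with medians of 9923 to 14001 UMIs per cell. A UMI (unique molecular identifier) marks 1 captured transcript. Cells were sorted into 16 classes by 8 markers each, none of them among the 7 genes: a cell joined the class with the most markers detected, if at least 3 were detected and at least 2 more than of any other class. In this way 27579 cells (83.7%) were gated, and names ending in -like are used for them. The same barcode sequence occurred in more than 1 library for 138 sequences (276 cells), of which 2 cells were NK cell-like. Levels are UMIs of the gene per 1000000 UMIs of the class (CPM), and a positive cell has at least 1 UMI of the gene. Intervals are exact 95% intervals, Poisson for levels and binomial (Clopper-Pearson) for shares, and they cover counting error only. Where no cell was positive, the limit given is that of 3 counts, 3 cells divided by the number of cells.

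NK cell-like cells numbered 286, or 0.868% of all cells (0.771% to 0.974%), with 36 to 70 cells in each library. Their share was lowest in library 5 (0.492%) and highest in library 3 (1.92%), with a median over the libraries of 1.05%. At least 3 of the 8 markers were needed to join the class, so their shares describe the gate and do not test the name. Of the 8 markers, Klre1 (96.9% of cells), Txk (96.5%) and Il2rb (95.1%) were found in nearly every cell, the NK transcription factor gene Eomes in 86.4%, and the 10 leading genes by fold over all other cells were Gzma, Klra8, Ccl5, Klra4, Xcl1, Klre1, Txk, Ncr1, Eomes and Serpinb6b. Of the leading genes, Klra8, Klra4, Klre1, Txk and Eomes are markers of the gate, and Gzma and Ncr1 are members. Among T cell markers, Cd5 was not detected and Cd3e was found in 0.350% of NK cell-like cells. Cd3d was found in 18.9% of them and Trbc2 in 37.1%. A UMI of Cd3d, Cd3e, Cd3g or Trac was found in 90 of the 286 cells.

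All 7 genes had their highest level in NK cell-like cells among the 12 classes of 50 or more cells. For 6 of the 7 genes, all but Gzmb, the level was at least 2-fold that of every other class, which held for 142 of the 16707 genes with at least 50 UMIs (0.85%). The same 6 genes were at least 2-fold the level of T cell-like cells, the background being 14.6% of genes. NK cell-like cells nevertheless held only 21903 of the 72905 UMIs of the 7 genes (30.0%, 29.7% to 30.4%). The remainder lay mostly in granulocyte precursor-like cells (24.9%), in cells with markers of more than 1 class (17.6%) and in T cell-like cells (16.1%). Nkg7 alone made up 36692 of the 72905 UMIs and weighs most on these shares. Gene by gene, the NK cell-like part ran from 14.2% for Klrd1 to 85.3% for Gzma. The 124 fibroblast-like cells, which a CD45 sort should leave out, held no UMI of any of the 7 genes. The matrix, from which the authors had removed ambient RNA, stores entries of 0 in these cells, 2 for Nkg7 and 1 for Klrd1. In the 6 libraries the NK cell-like part of the UMIs of all 7 genes ran from 14.0% in library 6 to 42.6% in library 1.

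**Figure D1:**
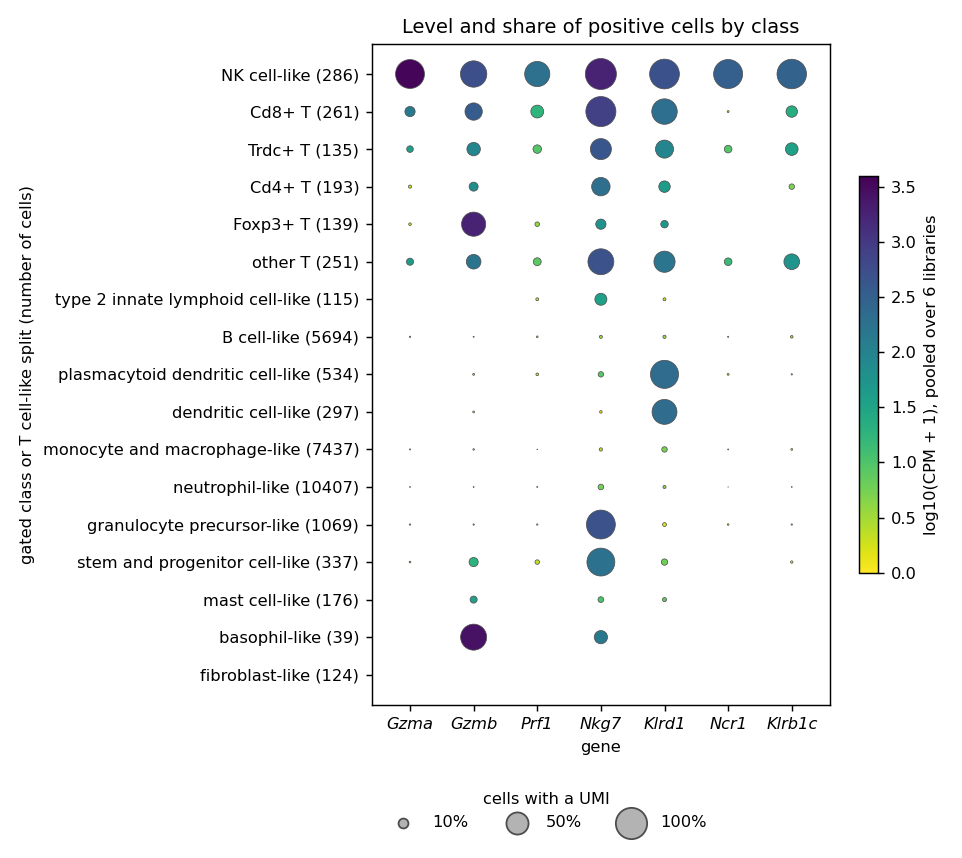
Level of the 7 genes (columns) in the gated classes and in the T cell-like cells split by marker (rows, number of cells in brackets). Dot color gives log10(CPM + 1) pooled over 6 libraries and dot area the percentage of cells with a UMI. The top row, NK cell-like cells, is filled for all 7 genes; outside it Gzmb is strong in Foxp3+ T and basophil-like cells, Nkg7 in Cd8+ T, granulocyte precursor-like and stem and progenitor cell-like cells, and Klrd1 in both kinds of dendritic cell-like cells.

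Gzma, the gene of the tryptase granzyme A, had the highest level of the 7 genes. In NK cell-like cells it reached 3591 CPM (3524 to 3659), and the libraries 1 to 6 gave 4350, 3386, 2501, 5285, 3947 and 2646 CPM. A UMI of Gzma was found in 244 of the 286 cells (85.3%, 80.7% to 89.2%), at 44.3 UMIs per positive cell and up to 248 in a cell. Library 6 had the fewest positive cells (63.2%) and library 1 the most (95.0%). NK cell-like cells held 85.3% of all Gzma UMIs. T cell-like cells followed at 55.1 CPM (50.8 to 59.7), 65.1-fold lower and lower in 6 of 6 libraries. Their level leaned on library 4, without which it was 33.1 CPM, and on few cells. The 10 cells with the most Gzma held 74.1% of the Gzma UMIs of the 979 T cell-like cells. Below T cell-like cells, granulocyte precursor-like cells held 56 UMIs, 55 of them in 1 cell. No UMI was found in the 297 dendritic cell-like, the 534 plasmacytoid dendritic cell-like, the 115 type 2 innate lymphoid cell-like, the 176 mast cell-like or the 124 fibroblast-like cells. A count of 0 in 534 cells allows up to 0.562% of cells with a UMI. These counts are those left after ambient RNA removal. Entries of Gzma stored as 0 numbered 2 in plasmacytoid dendritic cell-like cells, 1 in dendritic cell-like cells and 1 in type 2 innate lymphoid cell-like cells.

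Prf1, the perforin gene, was low in level and close to Gzma in its range. NK cell-like cells had 187 CPM (172 to 203), with 311, 131, 166, 215, 168 and 178 CPM in the libraries 1 to 6. It was found in 185 cells (64.7%, 58.8% to 70.2%), most of them with few UMIs (median 2, at most 14). T cell-like cells had 8.02 CPM (6.42 to 9.89) and were below NK cell-like cells in 6 of 6 libraries, without overlap of the library values. All other classes of 50 or more cells were at or below the 1.17 CPM of stem and progenitor cell-like cells.

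Nkg7 was found in nearly every NK cell-like cell, 282 of 286 (98.6%, 96.5% to 99.6%), at 1814 CPM (1766 to 1863). The libraries 1 to 6 gave 2135, 1690, 1505, 2182, 1856 and 1747 CPM, a narrower range than that of Gzma. T cell-like cells had 454 CPM (441 to 467) and granulocyte precursor-like cells 498 CPM (491 to 505). The order of these classes is not settled by the libraries, where T cell-like cells ran from 257 to 587 CPM and granulocyte precursor-like cells from 335 to 597 CPM.

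The receptor genes were even across libraries. Klrd1 was at 506 CPM (481 to 532) in NK cell-like cells, with 616, 543, 423, 573, 429 and 438 CPM in the libraries 1 to 6 and 90.6% positive cells (86.6% to 93.7%). Ncr1 was at 330 CPM (309 to 351), with 360, 288, 283, 401, 298 and 427 CPM in the same order and 86.0% positive cells. Klrb1c was at 307 CPM (287 to 327), with 305, 363, 274, 320, 240 and 306 CPM and 88.8% positive cells. For Ncr1, T cell-like cells had 4.98 CPM, 66.2-fold lower, and no UMI was found in those of library 4. For Klrb1c they had 25.4 CPM, 12.1-fold lower, and the T cell-like values of the libraries spread from 5.87 to 52.2 CPM. Neither receptor passed 1.73 CPM in any other class of 50 or more cells.

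**Figure D2:**
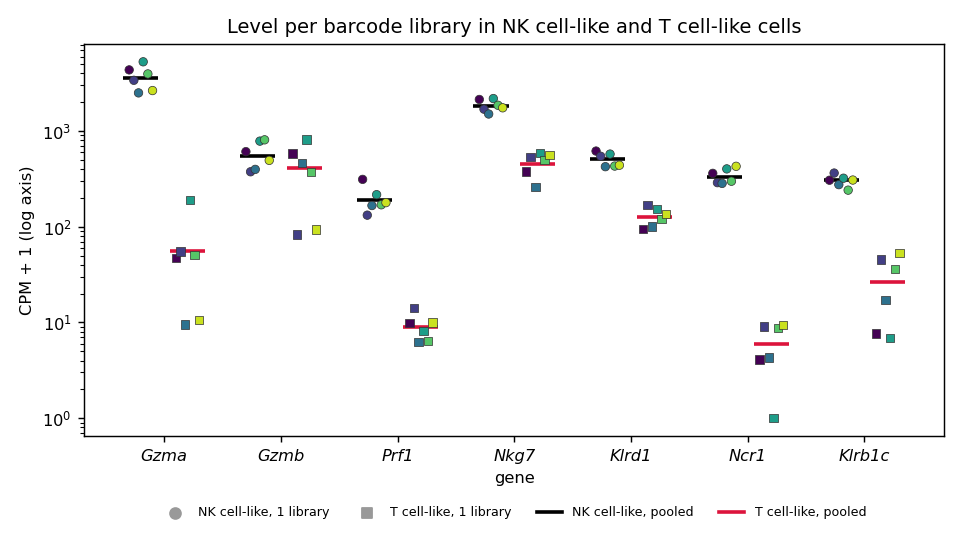
CPM + 1 on a log axis for each gene in NK cell-like cells (circles) and T cell-like cells (squares), 1 point per barcode library, ordered from library 1 on the left to library 6 on the right in each cluster of points. Bars give the pooled level, black for NK cell-like and red for T cell-like cells. The points do not overlap except for Gzmb, where the T cell-like values run from 82.2 to 815 CPM across the NK cell-like values of 374 to 808 CPM.

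Stray RNA gives UMIs in cells that do not use a gene, so shares were set beside those of B cell-like cells (median 5776 UMIs per cell against 8730 in NK cell-like and 9115 in T cell-like cells). There the positive cells were 0.193% for Gzma, 0.105% for Gzmb, 0.316% for Prf1, 0.931% for Nkg7, 1.04% for Klrd1, 0.140% for Ncr1 and 0.702% for Klrb1c. The authors had removed ambient RNA, so these shares are those left after that step. For Gzma, 11 B cell-like cells were positive and 11 further entries were stored as 0. Thinning each cell to 2000 UMIs, which left out 4 NK cell-like and 7 T cell-like cells, lowered the NK cell-like shares to 78.4% for Gzma, 44.7% for Gzmb, 31.9% for Prf1, 93.3% for Nkg7, 57.8% for Klrd1, 51.8% for Ncr1 and 45.7% for Klrb1c. In T cell-like cells the thinned shares ran from 0.412% for Ncr1 to 39.2% for Nkg7, each below its NK cell-like share. These are values of all T cell-like cells together. For Gzmb the thinned share was 53.3% (44.6% to 61.9%) in T cell-like cells with Foxp3, which are described below. Basophil-like cells had 65.8% (48.6% to 80.4%). Both shares were above the NK cell-like 44.7% (38.8% to 50.7%), with overlapping intervals.

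Within NK cell-like cells most members were found together. All 7 were detected in 115 of the 286 cells (40.2%) and 6 in a further 80, against 2 and 5 of the 979 T cell-like cells. The triplet Gzma, Gzmb and Prf1 was complete in 146 NK cell-like cells (51.0%, 45.1% to 57.0%) and in 8 T cell-like cells (0.817%). The receptors Klrd1, Ncr1 and Klrb1c were found together in 209 NK cell-like cells (73.1%, 67.5% to 78.1%). Of the 203 NK cell-like cells with Gzmb, 191 (94.1%) also had Gzma, beside 63.9% of the 83 without Gzmb and 85.3% of all 286. Gzma was rare in T cell-like cells (5.11%), where 224 of the 259 Gzmb-positive cells had no Gzma. There too it was found more often with Gzmb (13.5%) than without it (2.08%). Gzmb was found in 28.6% of the 42 NK cell-like cells without Gzma, beside 78.3% of those with it. Depth raises all such shares of cells, and co-detection was not repeated at equal depth.

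**Figure D3:**
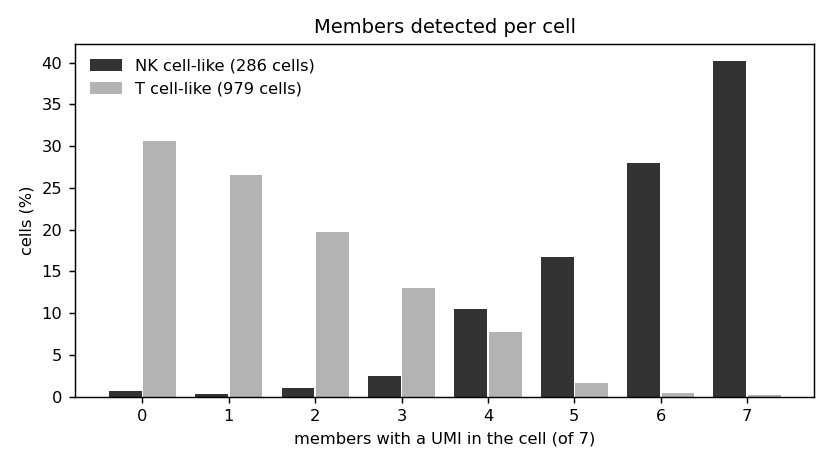
Percentage of cells (vertical axis) by the number of the 7 genes with a UMI in the cell (horizontal axis), for 286 NK cell-like cells (dark) and 979 T cell-like cells (light). NK cell-like cells pile up at 7 genes (40.2%) and T cell-like cells at none (30.6%).

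Gzma, Gzmb and Prf1 differed more among NK cell-like cells than the receptor genes did when the cells were split by Klrg1. Klrg1, a receptor of mature NK cells, was detected in 64 of them, a split chosen after its values were seen. Gzma was at 7419 CPM (7209 to 7633) in these and at 2558 CPM (2494 to 2623) in the other 222. With Klrg1 the libraries 1 to 6 gave 8300, 6537, 6887, 8608, 9051 and 4119 CPM, and without it 2584, 2485, 2229, 3760, 2560 and 2246 CPM, so that no value of either side overlapped the other. Prf1 was at 325 CPM (282 to 372) with Klrg1 and at 150 CPM (135 to 167) without, higher in 6 of 6 libraries. Gzmb was at 971 CPM (896 to 1050) against 426 CPM (400 to 453), but in library 6 the order was turned, with 228 CPM in 7 cells with Klrg1 and 564 CPM in 31 cells without. The gap was smaller for Nkg7 (2301 against 1683 CPM), Klrd1 (660 against 464 CPM), Ncr1 (450 against 297 CPM) and Klrb1c (389 against 284 CPM). Cells with Klrg1 were the shallower ones, with a median of 7659 UMIs against 9704. Split by Itgam, the integrin gene that also marks maturation, the 88 cells with it had 6885 CPM of Gzma and the 198 cells without it 2470 CPM.

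Cells with cell cycle transcripts had the genes as well. At least 3 of 8 cell cycle genes were detected in 44 NK cell-like cells, of which 95.5% had Gzma, 77.3% had Gzmb and 97.7% had Ncr1. Prf1 was found in 54.5% of the 44 cells and in 66.5% of the 242 others. The 44 cells were the deeper ones, with a median of 21676 UMIs against 8098, and depth raises such shares. As a fraction of all UMIs their levels were lower than in the 242 other cells, 3019 against 3854 CPM for Gzma and 115 against 221 CPM for Prf1.

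Gzmb, the gene of the aspartate-cutting granzyme B, was the exception to the NK cell-like pattern. NK cell-like cells had 542 CPM (516 to 569), 608, 374, 396, 783, 808 and 493 CPM in the libraries 1 to 6, with 71.0% positive cells (65.3% to 76.2%). T cell-like cells had 410 CPM (398 to 422), with 580.0, 82.2, 462, 815, 372 and 92.9 CPM. NK cell-like cells were higher in 4 of 6 libraries and lower in libraries 3 and 4, and the values overlapped. Since T cell-like cells were more numerous, they held 4443 Gzmb UMIs (49.2% of all) and NK cell-like cells 1631 (18.0%).

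Pooled over the libraries, 2571 of the 4443 Gzmb UMIs of T cell-like cells lay in cells with a UMI of Foxp3, the transcription factor gene of regulatory T cells. These cells held the larger part in libraries 1, 2 and 3 but not in library 4 (357 of 1251 UMIs), library 5 (270 of 625) or library 6 (1 of 155). The 139 cells had 1785 CPM (1717 to 1855), above the level of NK cell-like cells in 5 of 6 libraries, and 83 of them were positive (59.7%, 51.1% to 67.9%). Positive cells had 31.0 UMIs on average and up to 162. The libraries 1 to 6 differed widely, with 19 of 25, 3 of 13, 37 of 48, 11 of 20, 12 of 23 and 1 of 10 cells positive and levels of 3241, 472, 1535, 1732, 1532 and 19.6 CPM. Libraries 2 and 6 were thus low, with the fewest cells of this kind. The other granule genes were nearly absent: 1 UMI of Gzma and 4 of Prf1 were found, 10.8% of the cells had Nkg7 and none had Ncr1 or Klrb1c, which in 139 cells allows up to 2.16%. The share with Gzmb was 66.4% among the 110 cells with at least 2 UMIs of Foxp3, and 58.1% among the 124 cells free of Cd8a, Cd8b1 and Trdc.

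Cd8+ T cells (261 T cell-like cells with Cd8a or Cd8b1 and without Cd4, Foxp3 or Trdc) had the other profile. Nkg7 was found in 92.3% (88.4% to 95.3%) at 789 CPM, and Klrd1 in 66.3% (60.2% to 72.0%) at 204 CPM, with 57.9% to 78.7% positive cells over the libraries. Gzmb was found in 30.7% (25.1% to 36.6%), Prf1 in 16.9% and Gzma in 10.7%. Library 4 held 749 of their 1142 Gzmb UMIs and 257 of their 428 Gzma UMIs. Without it the level of Gzmb was 151 CPM in place of 370, and that of Gzma 65.8 CPM in place of 139. For each gene, the 10 cells with the most UMIs held 71.3% of the Gzmb and 88.1% of the Gzma UMIs. Ncr1 was found in 0.383% of all 261 cells.

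The 135 Trdc+ T cells, which carry the constant gene of the γδ receptor, had Nkg7 in 45.2%, Klrd1 in 33.3%, Gzmb in 18.5% and Klrb1c in 16.3%. Their Gzma level of 36.1 CPM was 16.5 CPM without library 4. Of the 193 Cd4+ T cells 34.7% had Nkg7 and 8.29% had Gzmb, and no Prf1 UMI was found, which allows up to 1.55% of cells. The remaining 251 T cell-like cells had Klrb1c in 25.1% and Ncr1 in 5.98%, the highest shares of both among the splits. They had no UMI of Foxp3 or Trdc, and either none of Cd4, Cd8a and Cd8b1 or Cd4 together with Cd8a or Cd8b1. For Ncr1 the Trdc+ T cells were close (5.93%).

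A further 106 cells had markers of both T and NK cell-like cells with no lead of either. Nkg7 was found in 94.3% of them, Klrd1 in 86.8%, Klrb1c in 60.4%, Gzmb in 39.6%, Ncr1 in 21.7%, and Gzma and Prf1 in 12.3% each. Their shares of all 7 genes were below those of NK cell-like cells, by the least for Klrd1 and Nkg7. Whether these cells were doublets was not tested.

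Basophil-like cells had the highest Gzmb level of any class, but they were few and stood outside the order of classes of 50 or more cells. The 39 cells held 712 Gzmb UMIs, 2772 CPM (2572 to 2983), and 27 of them were positive (69.2%, 52.4% to 83.0%). Positive cells were 5 of 7, 10 of 14, 6 of 8, 1 of 2, 4 of 5 and 1 of 3 in the libraries 1 to 6. The level without library 2 was 4050 CPM. Gzma, Prf1, Klrd1, Ncr1 and Klrb1c had no UMI in these cells, and Nkg7 was found in 17.9%. Of their gate markers, Mcpt8 was found in 79.5% and Cd200r3 in 89.7% of cells, shares that do not test the name. The mast cell proteases Mcpt4, Cma1, Tpsb2 and Tpsab1, a part of the mast cell markers, were at 0. The rest of that list (Cpa3, Kit, Ms4a2 and Hdc) is not given here. The gate asked for fewer mast cell markers than basophil markers, so these zeros do not test the name either. In the Leiden clusters described below, 37 of the 39 cells fell in the cluster named for mast cells. Mast cell-like cells had 36.6 CPM of Gzmb and 5.11% positive cells, and stem and progenitor cell-like cells 18.1 CPM and 8.61%.

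**Figure D4:**
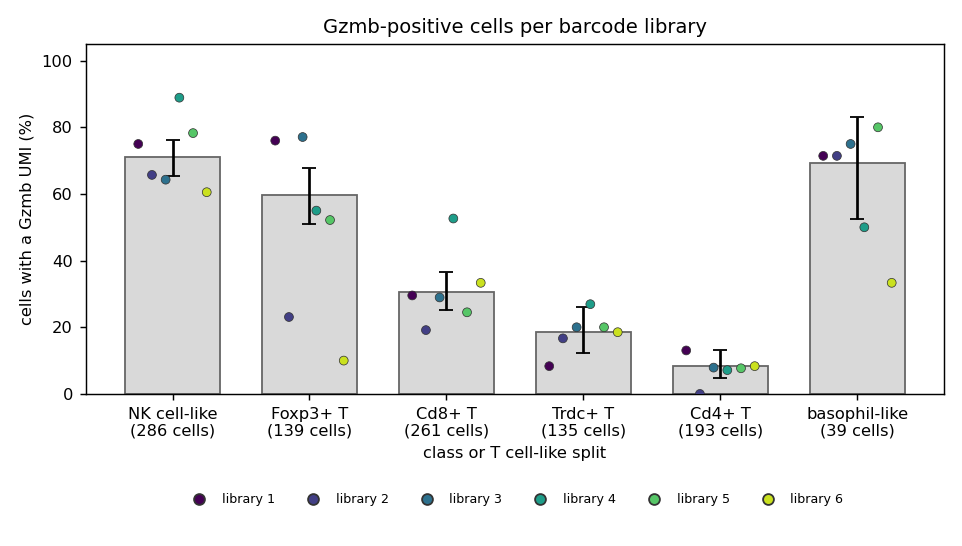
Percentage of cells with a Gzmb UMI in NK cell-like cells, in 4 splits of the T cell-like cells and in basophil-like cells. Gray bars are the pooled shares with exact 95% binomial intervals, and each point is 1 barcode library. The shares are those at full depth, before thinning. Foxp3+ T cells reach 59.7% pooled with points from 10.0% to 77.1%, while Cd4+ T cells stay at 8.29%.

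Nkg7 was shared with granulocyte precursors. Granulocyte precursor-like cells, defined by azurophil granule genes such as Mpo and Elane, held 18092 of its UMIs (49.3%), more than NK cell-like (14.9%) and T cell-like cells (13.4%) together. It was found in 85.3% of the 1069 cells (83.0% to 87.4%) and in 73.1% to 89.1% over the libraries, whereas Gzma was found in 0.187% of them. These cells are deep (median 32932 UMIs), and after thinning to 2000 UMIs the share was 44.6%, against 93.3% in NK cell-like cells. Stem and progenitor cell-like cells had 181 CPM (171 to 192), with 149 to 252 CPM over the libraries, and neutrophil-like cells had 4.79 CPM (4.40 to 5.21) and 3.22% positive cells. Nkg7 was the seventh of the leading genes of granulocyte precursor-like cells, and Cst7, the gene of the protease inhibitor cystatin F, was the ninth.

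Among granulocyte precursor-like cells with up to 4 neutrophil markers, the level of Nkg7 was highest in those with 1 or 2. Cells with none of the 8 neutrophil markers had 226 CPM (215 to 237), those with 1 had 781 CPM (763 to 798), those with 2 had 717 CPM (696 to 738), those with 3 had 340 CPM (326 to 356) and those with 4 had 249 CPM (232 to 266). Cells with 2 markers were above those with none in 6 of 6 libraries, at 571 to 1022 CPM against 87.3 to 313 CPM. Cells with 1 marker exceeded those with none in 5 of 6 libraries, library 1 having only 4 such cells. This split was chosen after the values were seen and leaves out cells with more than 4 neutrophil markers. The gate asked for at least 2 more precursor than neutrophil markers, so the groups also differ in precursor markers by construction. Cells without that lead counted as mixed. Among the mixed cells, 735 had these as their leading classes, and Nkg7 was found in 52.8% of those.

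Klrd1 was shared with dendritic cells. Dendritic cell-like cells had 219 CPM (207 to 231) and plasmacytoid dendritic cell-like cells 217 CPM (206 to 228), levels that differed by less than their counting intervals. The libraries 1 to 6 gave 179, 313, 202, 223, 233 and 205 CPM in the former and 237, 216, 388, 211, 171 and 211 CPM in the latter. Positive cells were 63.3% (57.5% to 68.8%) of the former and 80.5% (76.9% to 83.8%) of the latter. The other receptors were not shared in this way: dendritic cell-like cells had no UMI of Ncr1 or Klrb1c, and the plasmacytoid kind had 0.587 CPM of Ncr1 and 0.294 CPM of Klrb1c. Monocyte and macrophage-like cells had 4.24 CPM of Klrd1 and 3.05% positive cells at a median of 15484 UMIs, beside 19285 in dendritic cell-like cells. Mixed cells held 3465 of the 10740 Klrd1 UMIs (32.3%), among them 1137 in 256 cells with dendritic cell and monocyte and macrophage markers. The Cd8+ T cells had 204 CPM of Klrd1, so such a level was not particular to dendritic cells.

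Split by their own markers after the values were seen, dendritic cell-like cells with Cd209a, a gene of type 2 conventional dendritic cells, and without the other markers had 458 CPM of Klrd1 (426 to 493, 84 cells). Cells with Clec9a or Xcr1, genes of the type 1 kind, had 127 CPM (114 to 140, 126 cells), and cells with both Ccr7 and Fscn1, genes of migrating dendritic cells, had 100.3 CPM (83.9 to 119, 77 cells). The 10 cells in none of these groups had 443 CPM (350 to 554), close to the Cd209a cells, so the high level was not particular to those. In the libraries 1 to 6 the Cd209a cells had 533, 348, 580, 434, 382 and 594 CPM and the Clec9a or Xcr1 cells 143, 351, 126, 78.8, 92.0 and 69.2 CPM. The Cd209a cells were higher in 5 of 6 libraries, and in library 2 the values lay side by side.

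**Figure D5:**
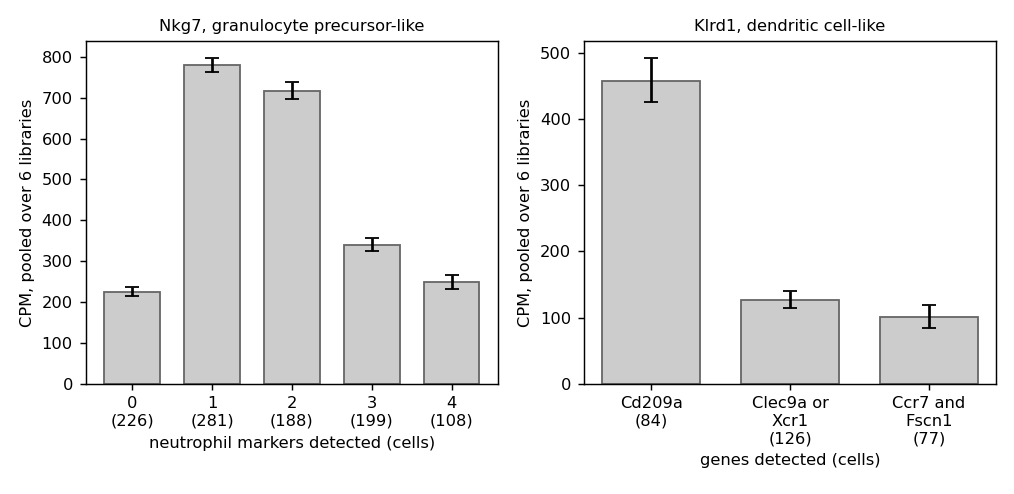
CPM (vertical axes, pooled over 6 libraries) with exact 95% Poisson intervals. The left panel gives Nkg7 in granulocyte precursor-like cells by the number of neutrophil markers (up to 4), with 781 CPM at 1 marker as the highest value. These groups also differ in precursor markers through the gate. The right panel gives Klrd1 in dendritic cell-like cells by the genes detected, with 458 CPM in Cd209a cells. The 10 cells in none of its groups, at 443 CPM, are not drawn. Cell numbers stand in brackets.

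Over 59 sums of class and library with at least 20 cells (12 classes), 4 of the members formed a tight group that the other 3 joined less closely. The points share libraries and depth, so the values are a description. On log2(CPM + 1), Pearson's correlations among Gzma, Prf1, Ncr1 and Klrb1c were 0.95 to 0.96. Gzmb followed them at 0.78 to 0.85, Nkg7 at 0.65 to 0.71 and Klrd1 at 0.56 to 0.57, and Nkg7 with Klrd1 gave 0.20. Among genes that were neither members nor markers, the most like Gzma were Klra9 (0.97), Klrc3 (0.97) and Trdj1 (0.95), and the most like Prf1 were Klra9 (0.96), Klrc3 (0.95) and Klrb1a (0.94). Ncr1 was most like Klrb1a (0.97), Tmprss6 (0.96) and Klra9 (0.96), and Klrb1c most like Klra9 (0.98), Qrfp (0.96) and Samd3 (0.96). For Gzmb they were Klrc1 (0.92), Sh2d1a (0.92) and Xcl1 (0.91), for Nkg7 Cldnd2 (0.85), Baiap3 (0.83) and Cst7 (0.80), and for Klrd1 Cd7 (0.94), Adgrg5 (0.88) and Cxcr3 (0.88).

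Other genes of the cytotoxic program were read in the same way, from 10 lists. The median log2 ratio of the NK cell-like to the T cell-like level was 3.55 for the 7 genes and -0.02 for all 16707 genes. The NK cell markers Klre1, Klri2, Klra4, Klra7 and Klra8 are C-type lectin receptor genes too, so counts for that list are not independent of the gate. Among the other C-type lectin receptors, 10 of 15 were at least 2-fold above every other class and 11 of 15 above T cell-like cells (background 0.85% and 14.6%). The highest were Klrk1, the gene of NKG2D, at 572 CPM (229 in T cell-like cells), Klra9 at 228 CPM (18.3), and the CD94 partners Klrc1 at 203 CPM (95.0) and Klrc2 at 178 CPM (59.6). The serpins that block granzymes went along for 3 of 4, with 565 CPM of Serpinb9 (97.2 in T cell-like cells), the granzyme B inhibitor, 511 CPM of Serpinb6b (85.1) and 39.5 CPM of Serpinb9b, which had no UMI in T cell-like cells. Serpinb6a was at 21.3 CPM and highest in fibroblast-like cells.

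The remaining machinery was mostly shared. Over all genes, 14.6% passed against T cell-like cells and 0.85% against every class. Of the other granzymes, 0 of the 3 with enough UMIs passed either ratio: Gzmc was at 17.3 CPM, Gzmm at 12.0 CPM and Gzmk at 6.64 CPM in NK cell-like cells. Of 13 genes of granule packing and release only Ctsw, the gene of cathepsin W, passed both (329 against 121 CPM), while the proteoglycan gene Srgn was at 1238 CPM in NK cell-like and 1710 CPM in T cell-like cells. Lyst (245 against 214 CPM) and Ap3b1 (159 against 173 CPM) were near equal. Activating and adhesion receptors passed against T cell-like cells for 3 of 11 (Itga2 273 against 12.7 CPM, Cd7 213 against 76.9 CPM), and for none against every class, while Slamf7 had 85.4 CPM and Cd160 had 63.1 CPM. Of 10 adaptors and kinases 4 passed against T cell-like cells, led by Tyrobp (1649 against 207 CPM) and Fcer1g (1173 against 213 CPM), and 1 against every class, while Hcst (435 against 436 CPM) and Cd247 (404 against 443 CPM) did not.

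Transcription factors passed against T cell-like cells for 3 of 11 (background 14.6% of genes, and 0.85% against every class). The 3 were Runx3 (622 against 231 CPM), Id2 (555 against 253 CPM) and Tbx21, the gene of T-bet (306 against 99.8 CPM). Of these, Tbx21 alone passed against every class. The lists are short, and their counts were not tested against the background. Ets1 was lower in NK cell-like cells (537 against 778 CPM), in 6 of 6 libraries. Of 8 death ligand and cytokine genes, 5 passed against T cell-like cells and 3 against every class, with Ccl5 at 5905 CPM (1660 in T cell-like cells), Xcl1 at 1259 CPM (373), Ccl4 at 1206 CPM (238) and Ccl3 at 219 CPM (53.0). Receptors for cytokines and chemokines passed for 4 of 12 and 2 of 12, with Il12rb2 at 480 CPM (134), Il18rap at 345 CPM (120) and Il18r1 at 294 CPM (371). None of the 8 cell cycle genes passed, with Top2a at 231 CPM (176), Mki67 at 188 CPM (132), Birc5 at 85.0 CPM (66.7) and Ube2c at 60.5 CPM (67.3).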

How the data were processed

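Per the labels and the study's methods, CD45-positive synovial cells of 6 samples were loaded on a Chromium controller (3′ chemistry) and sequenced, and the authors aligned reads to mm10 with Cell Ranger version 7, removed ambient RNA with SoupX and doublets with DoubletFinder, and filtered cells in Seurat. The deposited matrix holds whole UMI counts of 20394 genes in 32953 cells, the number of cells that the study kept. It also stores 1724738 entries of 0, among them 333 for Nkg7 and 90 for Gzma. No other doublet call was made.

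The matrix was read in Python 3.11.15 (numpy 2.4.6, scipy 1.17.1, pandas 2.3.3), and figures were drawn with matplotlib 3.10.9. Classes were gated as described in the report, with no member among the markers. T cell-like cells were split in the order Foxp3, Trdc, Cd8a or Cd8b1, Cd4. Cells with Cd4 together with Cd8a or Cd8b1, and without Foxp3 or Trdc, stayed among the remaining cells. The matrix pools the samples and its barcode numbers carry no sample name, so it counts as 1 sample: no test was run, no p-value is given, and PBS and PEPITEM were not compared. Thinning drew 2000 UMIs from each cell. A gene counted as higher at a ratio of at least 2, among genes with 50 or more UMIs. Named were all 7 members in every class, up to 4 genes per list with the highest NK cell-like level, and the 3 genes most like each member that were neither members nor markers. A gene that the rule names is not reported here. Genes named beyond this rule (the markers, the leading genes and genes used for splits) were picked with their values in view. The members, markers, lists and motifs were chosen with earlier results of these data known. Scripts were tested on simulated data. Alternatives were other gate settings, Leiden clusters (scikit-learn 1.9.0, igraph 0.11.9, leidenalg 0.10.2), means over cells, thinning, and leaving out each library.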

Additional observations from a re-analysis of the deposited data

How the results depend on the processing

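No paired analysis was possible because the barcode numbers carry no sample name, although PBS and PEPITEM samples share replicate numbers in the labels. All 7 genes stayed highest in NK cell-like cells with a gate of at least 4 markers, without cells with Cd3 or Trac UMIs, with means over cells and without each library. Under a gate of at least 2 markers with a lead of 1 and under Leiden clusters 6 did, and Gzmb was highest in basophil-like cells or in the cluster named for mast cells, which held 37 of the 39 basophil-like cells. The percentage of the 7 genes' UMIs in NK cell-like cells (30.0%) was 32.1% under the gate of at least 2 markers, 33.0% under Leiden clusters and 20.4% when cells with a UMI of Cd3d, Cd3e, Cd3g or Trac were left out, which takes 90 cells away by construction. The percentage of all cells (0.868%) was 0.977%, 1.03% and 0.595% under the same alternatives. A gate of at least 4 markers gave 29.8% of the UMIs. Leaving out 1 library gave 28.0% (without library 2) to 34.4% (without library 6) of the UMIs and 0.766% (without library 3) to 1.02% (without library 5) of the cells. The NK cell-like levels were less stable than their order. They left their counting intervals for all 7 genes with means over cells and for 6 under Leiden clusters. Without cells with Cd3 or Trac UMIs 5 did, and under the gate of at least 2 markers 4 did. With at least 4 markers 0 did, and leaving out 1 library moved 1 to 4. The depth, 8730 UMIs in the median NK cell-like cell, limits the shares most for Prf1, Klrb1c and Ncr1, whose positive cells had medians of 2, 3 and 3 UMIs.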
